A study of Mus musculus with 16 samples.

Results

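A set of 1886 CpGs, of 17966522 autosomal CpGs covered in both bisulfite libraries, carried 500 or more methylation calls in the young library and in the old library. They were chosen by that number of calls alone, on the autosomes, so their depth is a description and no finding. The libraries came from sorted pancreatic β cells of C57Bl6 mice. The young one was made from a pool of 10 mice aged 4 to 6 weeks, and the old one from a pool labelled 16 to 18 months, for which the design text gives 18 to 22 months. With 1 library of each age there is no replicate error: each comparison below sets 1 library against the other, and a difference may belong to the pools, the library preparation or the age, which cannot be told apart. RNA of β cells from MIP-GFP/Bl6 mice, which carry green fluorescent protein under the insulin promoter, was held for 3 old pools, aged 15, 16 and 17 months, and 2 young pools aged 4 to 6 weeks, each of 5 to 10 mice. Histone peak lists were held for C57Bl6 β cells of 16 to 18 months (H3K4me1 and H3K27me3) and of 4 to 6 weeks (the same marks and H3K27ac), 1 list per mark and age.

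Depth of this kind can arise where many copies of a repeat in the animal are represented by few copies in the assembly, so that reads of all copies are placed on the same bases. The mouse major satellite, the DNA of pericentromeric heterochromatin, repeats in units of 234 bp and is normally densely methylated. The minor satellite lies at the centromere itself and repeats in units of 120 bp. Ribosomal RNA genes form tandem arrays, of which some copies are transcribed and unmethylated and others are silent and methylated. Bisulfite converts unmethylated cytosine to a base read as T, so a copy that carries T in place of C reads as unmethylated, and copy differences cannot be told apart from methylation differences in these values. Calls from collapsed copies and amplified molecules are also not independent, so the intervals given here cover counting error only.

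Sequence could be shown for a tandem array on chromosome 4 and a segment on chromosome 11, the places where the CpG spacing of a RefSeq promoter window equalled that of the deep CpGs (2 of 19582 windows with 5 or more CpGs). Both are RefSeq sequences of GRCm38.p6, plus strand, 300 bases each, with every CpG in capitals. The Gm40237 window is chr4:118547156-118547455 and holds 10 CpGs, 7 of them deep. The Gm33862 window is chr11:3136826-3137125, and all 6 of its CpGs were deep.
Gm40237: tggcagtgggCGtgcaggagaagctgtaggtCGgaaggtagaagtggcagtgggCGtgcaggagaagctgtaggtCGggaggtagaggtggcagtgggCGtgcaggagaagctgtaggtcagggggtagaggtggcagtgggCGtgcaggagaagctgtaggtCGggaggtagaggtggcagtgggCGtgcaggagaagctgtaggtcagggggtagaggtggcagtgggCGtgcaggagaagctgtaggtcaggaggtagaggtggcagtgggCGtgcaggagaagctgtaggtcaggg
Gm33862: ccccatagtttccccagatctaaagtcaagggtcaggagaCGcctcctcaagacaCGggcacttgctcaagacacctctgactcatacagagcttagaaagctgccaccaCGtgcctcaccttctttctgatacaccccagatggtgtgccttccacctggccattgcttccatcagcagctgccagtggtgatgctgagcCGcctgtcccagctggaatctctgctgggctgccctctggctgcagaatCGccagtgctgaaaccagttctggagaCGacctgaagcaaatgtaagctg

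The Gm40237 window shows the same block of bases again and again, with 1 or 2 CpGs per block. All further coordinates are in mm9, the build of the deposited tables. The array lies at chr4:118219836-118221335, where 44 of 49 CpGs were deep and 44 bp was the most frequent distance between deep CpGs (27 pairs). In the window shown, calls were 88 in the young and 132 in the old library at CpG 1, highest at CpG 7 with 3534 and 3890, and 884 and 899 at CpG 10. Methylation of its 7 deep CpGs lay between 61.1% and 72.2% in the young library and between 61.5% and 72.3% in the old library. Over the whole cluster the pooled methylation was 67.2% and 67.7%, and single CpGs ran from 30.1% to 78.5% in the young and from 24.8% to 81.6% in the old library. The neighbours in the Gm33862 window were less alike. CpGs 1, 2 and 4 of that window were methylated at 72.2%, 74.0% and 80.1% in the young library and at 72.9%, 81.3% and 85.6% in the old library. CpG 3 was at 15.7% and 10.9%, on 942 and 930 calls. CpGs 5 and 6 lay between these, at 54.6% and 46.8% in the young and 56.9% and 37.5% in the old library.

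The deep CpGs were 0.0104% of the autosomal CpGs in the young table and 0.010% in the old table, and held 53.3% and 28.7% of all autosomal calls. In numbers, that was 429227989 of 804634218 calls in the young library and 161594766 of 563387254 in the old library. Outside the deep CpGs the order was the other way, with 375406229 calls in the young and 401792488 in the old library. Their median depth was 2603.5 calls in the young and 2234 in the old library, against 16 and 18 calls over all autosomal CpGs of each table. The mass lay in few positions: 40 of them had at least 1000000 calls in the young library and 29 in the old, while 506 and 494 had under 1000. A single CpG, chr2:98507306, drew 57348820 young and 20596265 old calls, 7.13% and 3.66% of the autosomal total. The 10 deepest CpGs together held 34.8% and 18.1%. At the threshold itself, the 51 CpGs with 500 to 524 calls in the shallower library had a mean methylation of 48.5% and 47.6%, and the 57 with 475 or more but under 500 calls, just outside, 42.4% and 43.8%.

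**Figure D1:**
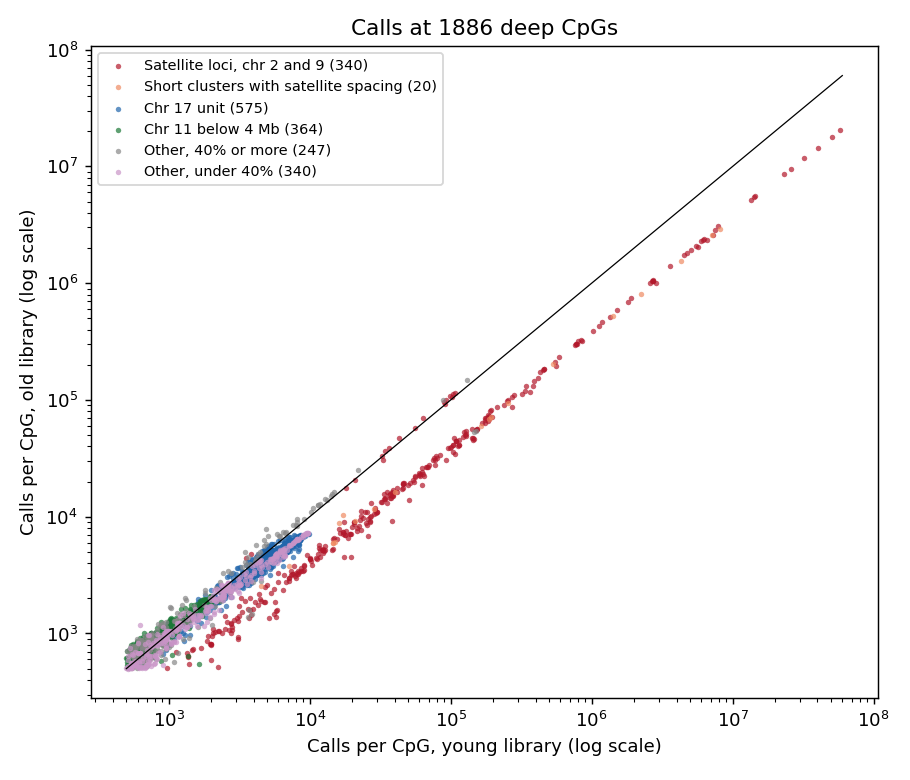
Calls per deep CpG in the young library (horizontal axis) and the old library (vertical axis), both on log scales, with a point per CpG coloured by group. The satellite loci on chromosomes 2 and 9 reach 57348820 young calls at chr2:98507306 and lie mostly below the diagonal, whereas most chromosome 11 CpGs lie close to it.

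Joined over gaps of up to 1000 bp, the 1886 CpGs formed 159 clusters on 19 autosomes, in 111 loci more than 100 kb apart. There were 43 single CpGs and 31 pairs, and the 33 clusters with 10 or more CpGs held 1539 of them, or 81.6%. Together the clusters spanned 101510 bp. Chromosome 17 held 594 deep CpGs, chromosome 11 held 391, chromosome 9 held 314 and chromosome 2 held 104. Many lay at the assembled start of a chromosome, the centromeric end in the mouse: 685 deep CpGs (36.3%) lay below 4 Mb, against 0.698% of all CpGs in both tables. Depth at the edges differed between clusters. Beside the chromosome 17 cluster, the CpGs within 1000 bp had a median of 14 young and 11.5 old calls, against 4589 and 3968 inside it. Beside the largest chromosome 11 cluster the flanks stayed deep, at 257.5 and 356 calls, against 1463.5 and 1547 inside.

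Methylation of the deep CpGs covered the whole range and fell into a low and a high class. In the young library 586 were below 20%, 379 between 20% and 40%, 116 between 40% and 60%, 345 between 60% and 80%, and 460 at 80% or more. The old library gave 604, 373, 107, 328 and 474. Each CpG counted once, the mean was 47.0% (SD 30.8 over CpGs) in the young and 46.9% (SD 31.2) in the old library. Weighted by calls, methylation was 85.6% and 84.3%, since the calls were concentrated at the highly methylated satellite loci. Of the 965 CpGs below 40% in the young library, 567 lay in the chromosome 17 unit and 331 in other low clusters. Of the 805 at 60% or more, 319 lay in the satellite loci, 266 in the chromosome 11 clusters, 20 in short clusters with satellite spacing and 197 in other, scattered clusters.

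**Figure D2:**
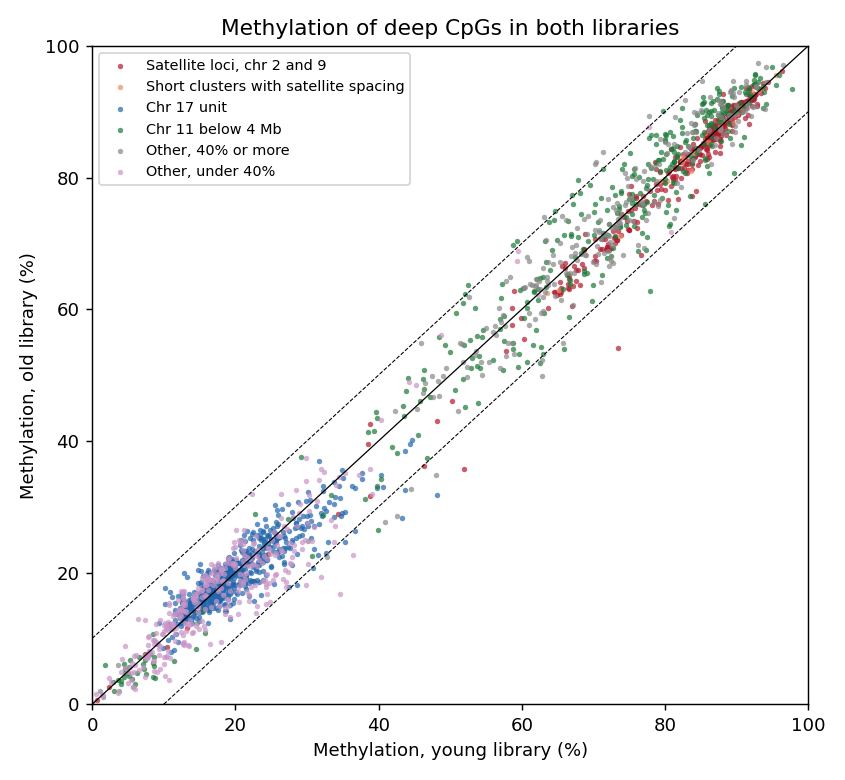
Methylation in percent of each deep CpG in the young library (horizontal axis) and the old library (vertical axis), coloured by group, with the diagonal drawn. Of 1886 CpGs, 87.0% differ by less than 5 percentage points, and the chromosome 17 unit sits apart from the satellite and chromosome 11 groups.

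The satellite loci on chromosomes 2 and 9 held 7 clusters with 340 deep CpGs, and 93.1% of all calls at deep CpGs in the young library and 91.8% in the old. They were picked as the loci with the most calls in the young library, so this share is a description. The cluster chr2:98506419-98507482, 1064 bp with all of its 30 CpGs deep, held 38.4% of the young and 20.1% of the old autosomal calls, 309357204 and 112990786. Its methylation was 86.6% and 86.2%. The neighbouring cluster chr2:98502421-98504195 held 7.37% and 4.13% of the autosomal calls, at 86.1% and 85.1%. On chromosome 9 the largest cluster was chr9:3015280-3032746, with 146 deep CpGs, 11602035 young and 4456676 old calls, and 81.9% and 81.1% methylation. The cluster chr9:3000031-3007462 held 84 at 86.1% and 86.2%, and chr9:3034224-3038256 held 38 at 84.4% and 83.6%. Pooled over the 340 CpGs the level was 86.3% and 85.8%, so these loci were densely methylated in both libraries. The mean difference of old minus young was -0.77 points, with 131 CpGs higher and 209 lower in the old library.

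Spacing of the CpGs bore on the reading as major satellite. In chr2:98506419-98507482 no distance between deep CpGs was more frequent than 234 bp (8 pairs), though 251 and 485 bp were equally frequent. In the neighbouring chr2:98502421-98504195 only 1 pair was 234 bp apart, and the most frequent distances, 99, 109 and 191 bp, had 3 pairs each. The distance of 234 bp was the most frequent in chr9:3015280-3032746 (27 pairs) and chr9:3000031-3007462 (22 pairs), and 233 bp was in chr9:3034224-3038256 (5 pairs). At the best offset in either orientation, the spacing of 3 short clusters elsewhere matched these loci in at least 80% of their CpGs. They were chr12:3109883 with 6 of 6, chr4:70039172 with 4 of 4 and chr9:35112827 with 9 of 10. Next came chr17:29826061, which matched in 3 of 4 CpGs but was methylated at only 12.97% in the young and 12.98% in the old library. The 3 clusters were picked by their match at the best offset, so their matched counts are a description and no test of satellite identity. Those 3 clusters had 20 deep CpGs and held 5.76% of the young and 5.56% of the old calls at deep CpGs, at 84.1% and 83.2% methylation. Nearly all of these calls lay in chr9:35112827-35113167, with 24026054 young and 8713596 old calls. Spacing was compared, not sequence: a satellite consensus was not used here.

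Within the 234 bp period, a triplet of CpGs with gaps of 15 and 16 bp occurred as 12 copies in 5 clusters, in either orientation. In every copy, and in both libraries, the third CpG of the triplet was the least methylated. The median over copies was 87.0%, 90.4% and 68.4% for the first, the second and the third CpG in the young library, and 86.7%, 90.5% and 66.0% in the old library. The copy at chr9:3029824-3029855, for example, read 87.4%, 89.9% and 64.4% in the young and 87.6%, 90.5% and 62.7% in the old library. The copy at chr2:98506748-98506779 was the least uneven, with 92.4%, 92.6% and 89.7% in the young and 91.9%, 92.5% and 89.2% in the old. The third CpG was also lower in the old library in 12 of 12 copies, by a median of -2.24 points (-3.02 to -0.50). The first was lower in 11 of 12 (median -0.57) and the second in 8 of 12 (median -0.07). The triplet was picked out after its values were seen and its copies may draw on the same reads, so these counts are a description with no test.

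**Figure D3:**
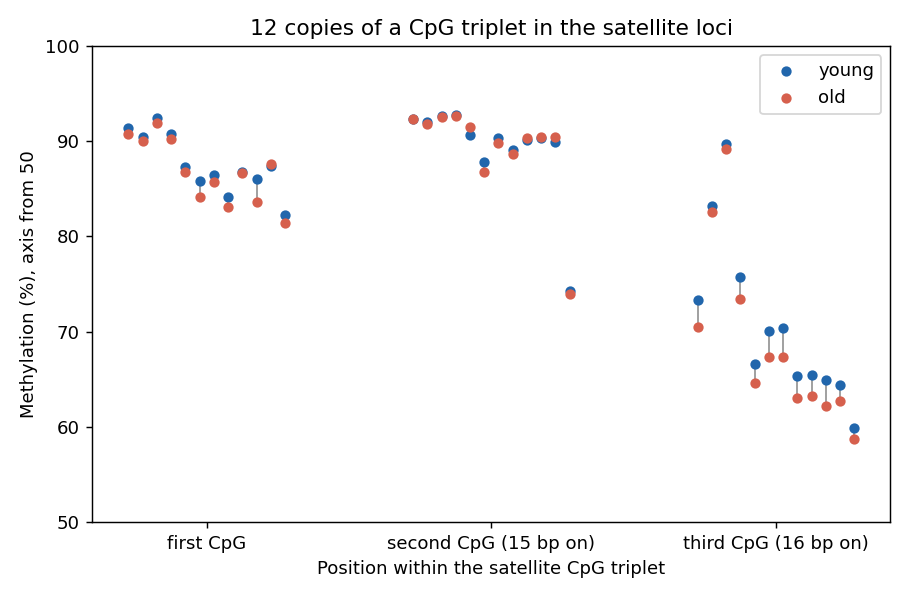
Methylation in percent (axis from 50%) at the first, the second and the third CpG of each of the 12 triplet copies. Blue points are the young and red points the old library, and a grey line joins both values of a copy. The third CpG is the lowest in every copy of both libraries, with medians of 68.4% (young) and 66.0% (old).

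The satellite clusters also differed in how their calls split between libraries. All 277 deep CpGs of the chromosome 9 locus had more calls in the young library, by 1.63 to 4.32 times (median 2.49). At the chromosome 2 locus 45 CpGs had young-to-old ratios of 2.08 to 3.80 (median 2.62), and 18 others, lying between them, had ratios of 0.80 to 1.09 (median 0.94). None of the 63 fell in between. The 2 sets were formed from these ratios, so their separation is a description. The 45 were methylated at 86.5% in the young and 86.1% in the old library, and the 18 at 76.9% and 75.5%. Of the 18, 8 lay in a pattern of gaps of 9 and 111 bp, and none of the 45 did. These gaps add up to 120 bp, the minor satellite's unit length. The gaps were taken from the cluster chr2:98505220-98505349, whose 4 CpGs are among those 8, so these counts are a description. At chr2:98505220 and the next CpG of that pattern, calls were 91047 and 102427 in the young and 91901 and 104959 in the old library. The same gaps were found at chr6:103599161-103599281, in the gene Chl1, where 3 deep CpGs had a ratio of 0.88 and methylation of 76.8% and 73.8%. They also occurred at 3 CpGs of the chr9:123371097 cluster, at ratios of 1.09 to 1.22, and at 28 of the chromosome 17 unit, where CpGs are so dense that most distances occur. For comparison, the ratio was 1.18 in the chromosome 17 unit, 0.93 in the chromosome 11 clusters, and had a median of 0.98 over the 159 clusters. A ratio above 2 was found in 11 clusters: 6 of the satellite loci, 2 of the short clusters with satellite spacing, 1 on chromosome 11 (chr11:3004276) and 2 others (chr12:68160407 and chr13:77578186). The satellite loci were picked by their young calls, so their ratios are a description too. Copy number, library preparation and age cannot be told apart for these ratios.

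**Figure D4:**
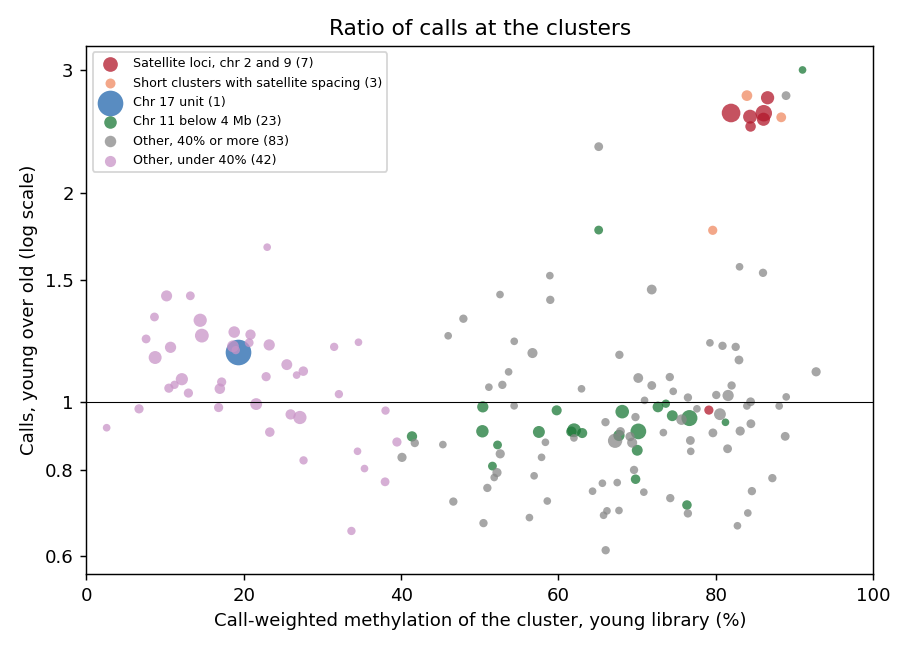
Ratio of young to old calls of each of the 159 clusters (vertical axis, log scale) against its call-weighted methylation in the young library in percent (horizontal axis), coloured by group, with larger points for clusters of more CpGs. Of 11 clusters above a ratio of 2, 6 belong to the satellite loci and 2 to the short clusters with satellite spacing.

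Single CpGs of low methylation stood inside highly methylated clusters. Among clusters with 10 or more deep CpGs and a young median of at least 70%, there were 21 CpGs below 20% in both libraries, in 6 clusters: 15 on chromosome 11, 5 on chromosome 9 and 1 on chromosome 2. The CpG chr2:98502984 was methylated at 0.71% of 104895 young calls and 0.68% of 47195 old calls, in a cluster with a median of 86.7% and 86.2%. At chr9:3001062 the values were 2.29% and 2.56%, and at chr11:3049960 they were 2.97% and 3.35%. A low reading in both libraries was the rule by which the 21 were picked, so it is no finding. Between the libraries they differed by 4.85 points at most. Smaller clusters, not counted here, held such CpGs too: the lowest of the 4 at chr10:7229536 read 3.78% in the young library, where the median was 89.5%.

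The chromosome 17 unit, chr17:39979946-39985763, was the largest cluster by number: 575 of its 596 CpGs were deep, within 5818 bp. The mouse assembly is known to carry a ribosomal RNA precursor gene on this chromosome, and RefSeq lists the ribosomal RNA pseudogene Rn18s-rs5 there, in another build whose positions were not compared. The unit took 2630124 young and 2231547 old calls, which was 0.61% and 1.38% of the calls at deep CpGs. Its methylation was 19.3% (exact 95% interval 19.25% to 19.35%) in the young and 19.5% (19.47% to 19.58%) in the old library. Single CpGs ranged from 9.08% to 48.2% in the young library and from 7.91% to 40.1% in the old. In windows of 500 bp along the unit the young level ran from 16.2% to 24.5%, with the lowest in the windows between 2000 and 2999 bp and the highest between 3000 and 3999 bp. The old level differed from it by between 2.33 points, at 1000 to 1499 bp, and -3.14 points, at 3500 to 3999 bp. Of its CpGs, 282 were higher and 293 lower in the old library, and 135 of 575 had an adjusted p under 0.05 by Fisher's exact test. Of all deep CpGs it was 546 of 1886 (28.95%), and of all tested CpGs, most of them far shallower, 7.27%.

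The called CpGs of the unit lay in a short stretch. In chr17:39984231-39984288, 58 bp long, 8 deep CpGs were methylated at 36.9% in the young and 25.2% in the old library, a difference of -11.7 points. All 8 were lower in the old library, by -16.4 to -8.36 points, on 998 to 1391 young and 810 to 1291 old calls each. The largest fall was at chr17:39984235, from 48.2% to 31.8% (adjusted p = 5.2e-09, Fisher's exact test of the calls of the 2 libraries). Over the other 567 CpGs of the unit the differences had an SD of 2.51 points and ran from -9.79 to 7.39. Within 100 bp of the stretch, the 3 CpGs before it read 36.7% and 30.8% and the 3 after it 24.2% and 20.5%, so its neighbours were lower in the old library too. The stretch was drawn around the called CpGs, and its CpGs share reads.

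**Figure D5:**
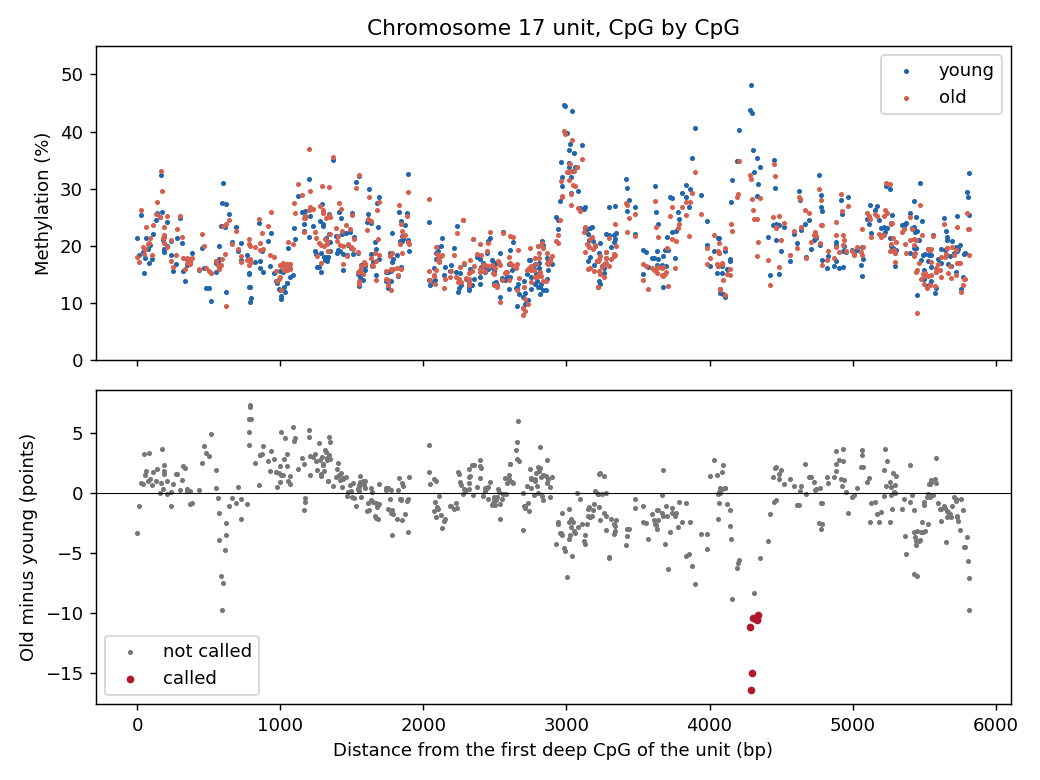
Methylation in percent of the 575 deep CpGs of the chromosome 17 unit by distance in bp from its first deep CpG, young and old library. The lower panel shows old minus young in percentage points, with called CpGs in red. In the stretch at 4285 to 4342 bp, 8 CpGs read 36.9% in the young and 25.2% in the old library.

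On chromosome 11, 23 clusters below 4 Mb held 364 deep CpGs, mostly within Sfi1, a gene for a centrosomal protein, and beside it within the pseudogenes Pisd-ps1 and Pisd-ps3. They were far shallower than the satellite loci, with a median of 900 young and 996 old calls. Pooled methylation was 67.6% in the young and 68.7% in the old library, with 220 CpGs higher and 144 lower in the old. The cluster with the most CpGs, chr11:3092283-3096684, held 74 at 76.6% and 77.4%. The cluster chr11:3032023-3040615 held 68 at 70.2% and 72.0%, and chr11:3041911-3047608 held 37 at 62.0% and 60.8%. At chr11:3049570-3051008 all but 6 of 34 CpGs were higher in the old library, and the pooled level was 68.1% against 72.5%.

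The remaining low class comprised 42 clusters of 340 CpGs, pooled at 16.2% in the young and 16.9% in the old library. Most were short, with a median span of 79.5 bp. The largest, chr16:11144100-11144310, had all of its 37 CpGs deep and read 14.7% and 16.7%, higher in the old library at 32 of 37. Several shared their CpG spacing with one another, at the best offset in either orientation. Only pairs sharing at least 60% of the positions in their overlap were kept, so these shares are a description. Of the 9 CpGs of chr2:5300294, 6 lay in the overlap with chr3:5860350 and all 6 had a counterpart there. The median levels were 18.5% and 23.0% in the young library. The clusters chr9:123371097, in Lars2, and chr12:79451894, in Gphn, shared 6 of 7 positions, at medians of 22.8% and 18.3%. The clusters chr12:100883780 and chr13:44964978 shared 7 of 10, and both medians were lower in the old library, 27.1% against 18.1% and 24.3% against 16.7%.

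In 5 of the 33 clusters with 10 or more deep CpGs, at least 90% of the CpGs differed in the same direction. The old library was higher at 30 of 30 CpGs of chr16:57391564 (14.5% to 16.9%), at 11 of 11 of chr11:3026970 (74.5% to 78.1%) and at 16 of 17 of chr6:3151422 (18.6% to 20.6%). It was lower at 20 of 20 of chr5:147072579, in Cdk8 (12.1% to 9.91%), and at 29 of 30 of chr3:5860350 (27.1% to 22.4%). CpGs of a cluster share reads, so these counts do not add up independent measurements.

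Between the libraries, deep CpGs differed little. The old minus young difference had a mean of -0.13 points, a median of 0.02 and an SD of 3.56 over CpGs, from -19.2 to 12.4, with 950 higher and 936 lower in the old library. Fisher's exact test, adjusted by Benjamini-Hochberg over 11352626 autosomal CpGs with at least 10 calls in both libraries, was combined with a difference of at least 10 points. By that rule 39 deep CpGs (2.07%) were called, 13 higher and 26 lower in the old library, against 7.23% of all tested CpGs (4.05% higher and 3.18% lower). The adjusted p alone, under 0.05, picked 546 (28.95%) against 7.27% of all, of which 348 differed by less than 5 points. With at least 20 points none was called, against 6.92% of all. The SD of the difference was 22.9 points at 10 to 19 calls, 17.2 at 20 to 49, 5.55 from 250 up to 500 and 3.56 at the deep CpGs. The mean level also differed between these depths, so the shares called are not compared further.

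By group, 7 of 575 CpGs (1.22%) were called in the chromosome 17 unit, all in the stretch given above and all lower in the old library. The chromosome 11 clusters had 12 of 364 called (3.30%), 8 higher and 4 lower. The satellite loci had 3 of 340 (0.88%), all lower. The other highly methylated clusters had 13 of 247 (5.26%), 5 higher and 8 lower, and the other low clusters 4 of 340 (1.18%), all lower. The short clusters with satellite spacing had none of 20. Of all tested CpGs, most of them far shallower, 7.23% were called. At chr6:49186520, between genes and nearest to Tra2a, all 4 CpGs of the cluster were called lower, 40.1% pooled in the young and 27.7% in the old library. The largest falls were at chr9:3036542, from 73.4% of 3474 calls to 54.2% of 1900 (adjusted p = 6.2e-40, Fisher's exact test), and at chr14:8838605, from 34.6% of 4019 to 16.8% of 3297 (2.5e-62). The largest rises were at chr14:20454814, from 71.4% of 528 calls to 83.8% of 650 (adjusted p = 0.00012, Fisher's exact test), at chr17:3079539, from 70.4% to 82.4% (4.7e-05), and at chr10:80640866, in Eef2, from 70.2% to 82.1% (5.5e-05). Among the deepest, chr2:98507306 read 90.7% and 91.0%, chr2:98507324 read 87.7% and 87.8%, and chr2:98507264 read 74.8% and 72.3%, lower by -2.57 points in the old library.

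The sign of the difference in pooled autosomal methylation depended on the deep CpGs, whose share of the calls differed between the libraries. They held 53.3% of the young and 28.7% of the old autosomal calls. With them, methylation over all calls at autosomal CpGs covered in both libraries was 75.6% in the young and 72.5% in the old library, -3.11 points. Without them it was 64.2% and 67.7%, which is 3.49 points higher in the old library. With each CpG counted once it was 75.8% and 75.4%. A comparison of these libraries by pooled calls thus rested on 0.01% of the CpGs.

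Histone peak lists covered the deep CpGs unevenly. Whether repeat copies share reads in these libraries too was not tested. Regions of H3K27me3, a repressive mark laid down by Polycomb, held 1721 deep CpGs (91.3%) in the young and 1749 (92.7%) in the old list, against 23.0% and 34.4% of all autosomal CpGs. Every deep CpG of the satellite loci, the chromosome 17 unit and the chromosome 11 clusters lay inside in both. By the authors' score, the first region of both lists was the chromosome 17 unit (2494.2 in the young and 3133.8 in the old), and 8 of the first 10 regions of each list lay at deep clusters. The next autosomal ones were the chromosome 11 clusters (1314.7 and 2436.9) and the chromosome 2 satellite locus (1090.5 and 1318.3). The sources used here do not say whether these lists were scored against an input. H3K27ac, a mark of active elements, held 186 deep CpGs (9.86%) in young cells against 4.07% of all, and none in the chromosome 17 unit. Its list, unlike those of H3K27me3, gives input reads beside each peak. The first peak, chr2:98506670-98507747, had 20346 tags against 10055.5 in the input, and the second, chr9:35112701-35113452, had 10942 against 4909.9. These are 2.02 and 2.23 times the input, close to the 2-fold minimum of the list. Of 17 peaks at deep clusters, 13 were under 3 times the input and 4 were over 5 times. Those 4 lay at clusters chr8:20019807 (14 times, 35 tags), chr3:5860350 (7.46), chr8:19785084 (6.15) and chr19:61275583 (5.89). H3K4me1, a mark of enhancers, held 12 deep CpGs (0.64%) in young and 2 (0.11%) in old cells, against 1.05% and 0.48% of all.

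RNA was set beside these regions through the genes that lie at them and through regulators of satellite and ribosomal DNA. Of 85 clusters with 3 or more deep CpGs, 43 overlapped a named transcript, 9 had one within 10 kb and 33, with 929 deep CpGs, had none. Of the 37 genes so found, 31 could be tested, and edgeR's quasi-likelihood test called 2 higher and 5 lower in old cells, with a median log2 fold change of -0.14. Over all 15544 genes tested, 3.17% were called higher and 7.93% lower, with a median of -0.050. Reads of repeat copies may count towards such genes. Lars2, a mitochondrial leucyl-tRNA synthetase gene with 13 deep CpGs, had 799, 420 and 898 CPM (counts scaled to library size) in the old and 2052 and 2262 in the young libraries. All old libraries lay below both young ones, and it fell by 1.44 on the log2 scale (SE 0.34, edgeR adjusted p = 0.035). Zc3h7a rose by 0.96 (SE 0.26, adjusted p = 0.049), from 59.9 and 78.3 in young to 112, 136 and 114 CPM in old libraries. Filip1l and Camk1d, a calcium-dependent kinase gene, fell by 3.64 (adjusted p = 0.022) and 4.05 (adjusted p = 0.020), both by edgeR. The other called genes, chosen here after their values were seen, were 2210408I21Rik (higher), Chl1 and Sp110 (both lower). Sfi1, which spans most of the chromosome 11 clusters, had 49.98, 62.5 and 58.7 CPM in old libraries, 429.9 in the shallower young library and 89.4 in the deeper one. Its log2 fold change of -2.03 (edgeR adjusted p = 0.050) did not pass the threshold, and without the shallower young library it was -0.47. It did pass with RLE scaling (adjusted p = 0.045), with DESeq2 (0.0022), with no filter (0.0078) and without the deeper young library (-2.75, 0.00014).

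Among 36 tested genes of repeat silencing and heterochromatin, none was called higher and 4 were called lower in old cells, against 3.17% and 7.93% of all genes, with a median log2 fold change of -0.075. Uhrf1, which brings the maintenance methyltransferase to newly made DNA, had 0.037, 0.030 and 0.13 CPM in the old and 2.51 and 15.4 in the young libraries, and fell by 6.84 on the log2 scale (SE 1.37, edgeR adjusted p = 0.023). Suv420h2, a histone H4 methyltransferase of pericentromeric heterochromatin, fell by 2.37 (SE 0.43, edgeR adjusted p = 0.017). Cenpb, whose protein binds the minor satellite, had 35.3, 26.8 and 39.98 CPM in old and 103 and 87.4 in young libraries, and fell by 1.32 (edgeR adjusted p = 0.035). Ehmt2, a histone H3 methyltransferase gene, fell by 1.07 (edgeR adjusted p = 0.045). Dnmt1, the maintenance methyltransferase itself, stood at 31.2, 28.9 and 29.6 in old and at 12.4 and 53.5 CPM in the young libraries, on either side of the old ones. Its log2 fold change was 0.016 with TMM and -0.082 with RLE scaling (edgeR adjusted p = 0.99 with TMM). Suv39h1, a histone methyltransferase of satellite heterochromatin, had a log2 fold change of 0.92 (SE 1.15, edgeR adjusted p = 0.64). A single library decided that value: it was 4.35 (edgeR adjusted p = 0.024) without the deeper young library, and 0.015 without the shallower one.

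Of 34 genes of ribosomal DNA transcription and the nucleolus, 1 was called higher and none lower, against 3.17% and 7.93% of all genes. The median log2 fold change of the 34 was 0.25. The called gene was Sirt7, a deacetylase of the nucleolus, with 25.9, 22.8 and 30.4 CPM in old against 7.53 and 9.15 in young libraries (log2 fold change 1.82, SE 0.44, edgeR adjusted p = 0.038). Ubtf, the factor that holds ribosomal genes open, had a log2 fold change of -0.047 (SE 0.30, edgeR adjusted p = 0.94), which turned to 0.19 without the shallower young library. Leaving out any 1 of the 3 old libraries left 0 called in both lists of regulators and 1 or 2 among the genes at clusters. Shares over all genes are not given for these fits or the next ones, so their counts are not read further. Leaving out the deeper young library gave 11 and 6 in the lists of regulators and 12 at clusters, and leaving out the shallower one gave 6 for ribosomal DNA, as DESeq2 did with all libraries. Markers of other cell types differed in the same libraries: of 30 markers of 7 other types, 22 were called lower in old cells and none higher. Of all genes, 7.93% were called lower and 3.17% higher. None of the 30 was at 0 in all old libraries. Their summed level was 1255 to 2217 CPM in old and 6838 to 47691 in young libraries. The alpha cell markers among them summed to 33791 CPM in the deeper and 2060 in the shallower young library, so the young pools differed too. The part of these other cell types in the RNA results was not tested, and fewer cells of a type and less RNA per cell cannot be told apart in such pools.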

How the data were processed

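Per the labels' protocols, β cells were sorted and DNA was bisulfite converted. The authors' CpG tables hold a methylated fraction and the number of calls per CpG (counts), strands merged, in mm9 per the submitters' processing notes. Those notes list STAR, edgeR, HOMER, Bowtie 0.12.7 and CASAVA 1.8.2 without assigning steps. Methylated calls were recovered as fraction times calls, within 1.9e-08 of a whole number. How multiply placed reads and duplicates were treated: not given in the sources used here. The deposited RNA table holds read counts per transcript (6377619 to 33562822 per library). In the deposited signal table labelled FPKM only transcript positions were used. The authors' peak lists give a score and, per the file headers for HOMER lists, tag counts.

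The members and lists were chosen with earlier results of these data known. Exact intervals are Clopper-Pearson at 95%. RNA used the transcript with the highest total count per gene, filterByExpr and TMM in edgeR 4.0.16 (R 4.3.3), two-sided, Benjamini-Hochberg, threshold 0.05, with DESeq2 1.42.0 as alternative. P-values of the RNA tests measure the spread between these pools. Those of Fisher's exact test compare the calls of 1 library of each age and cover counting error only. Scripts were tested on simulated data. Named were the 10 clusters with most members and those with 2% of member calls, the deepest CpG in the first 6 of these, the 3 largest rises and falls, genes at clusters (at most 20) and up to 4 called genes per list, with Dnmt1, Uhrf1, Suv39h1 and Ubtf in any case. Other clusters and CpGs named were picked after their values were seen. Standard errors were taken from the F statistics.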

Additional observations from a re-analysis of the deposited data

Results flagged for a closer look

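Deep CpGs also occurred on chromosomes left out of the set, where no comparison was made. Chromosome X had 97 CpGs with 500 or more calls in both libraries, methylated at 43.4% in the young and 41.7% in the old library. Chromosome Y had 94, at 50.9% and 50.4%. The mitochondrial genome had 215 of 219 CpGs at that depth, at 6.32% of 1163351 young calls and 4.50% of 2037966 old calls. These values are given as they stand, above the limit that a count of 0 would allow.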

How the results depend on the processing

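A minimum of 250 calls gave 2875 CpGs in 325 clusters, 1000 calls gave 85 clusters, and joining over 100 bp gave 386. The pooled difference of -1.28 points at deep CpGs became -0.13 with each CpG counted once, 0.16 as a mean over clusters, -1.33 and -1.23 with 250 and 1000 calls, and -3.03 without the cluster with the most calls. With the same weights in both libraries, an alternative chosen after seeing the data, it was -0.44. The autosomal difference of -3.11 points reversed to 3.49 without the deep CpGs and was -0.42 with each CpG counted once (both also chosen after seeing the data). Against 39 deep CpGs called different, the adjusted p alone called 546 and a minimum of 20 points called 0. A coverage minimum of 5 or 20 left 39. Adding unplaced contigs gave no value.

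Leaving out each RNA library gave 0 to 11 called repeat-silencing genes (4 with all), 0 to 6 ribosomal DNA genes (1 with all) and 1 to 12 genes at clusters (7 with all). DESeq2 gave 6 and 12 for the latter 2 lists. Shares over all genes are not given for these fits, so their counts are not read further. Of 12 named genes called, DESeq2 kept 12, RLE scaling 10, no filter 11, leaving out an old library 1 or 2, the shallower young library 9 and the deeper one 11. With RLE the median over all tested genes was -0.17 instead of -0.050. Dnmt1 (0.016) reversed to -0.082 with RLE and -0.076 with DESeq2, and ran from -0.67 without the shallower to 1.43 without the deeper young library. Ubtf (-0.047) reversed to 0.033 with no filter and to 0.046 without the first old library, and ran from -0.26 without the third old library to 0.19 without the shallower young one. The cause was not tested. No paired analysis was possible because the young columns carry no replicate number.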

Other observations

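At some of the deepest CpGs the deposited fraction lay at a whole thousandth. Among CpGs with at least 100000 calls, 8 of 72 in the old library and 4 of 120 in the young library lay within 1.5 calls of one, where an even filling would give 0.72 and 1.36. From 20000 to under 100000 calls the old library had 9 where an even filling would give 6.59, and the young library had 5 where it would give 8.14, so no such excess was seen in the young library there. The CpG chr2:98507352, with 11815527 old calls, is among the 8 of the old library with at least 100000 calls, at 85.6%. The origin of these values was not tested.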
